A study of Mus musculus with 12 samples.

Results

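The 7 Cyp2a and Cyp2b genes Cyp2a4, Cyp2a5, Cyp2a12, Cyp2a22, Cyp2b9, Cyp2b10 and Cyp2b13 were followed in the livers of adult male C57Bl/6J mice. They were chosen by symbol from a count table of 52636 genes, and 4 of them are Cyp2a and 3 are Cyp2b genes. Bulk RNA-seq was made from the left lateral lobe of 12 mice at 16 weeks of age, with 1 library per mouse. The 6 VDD-F1 mice were born to C57Bl/6J mothers fed a vitamin D deficient diet before mating and through pregnancy, with calcium gluconate given to those mothers. The mothers of the 6 VDS-F1 mice ate a diet with sufficient vitamin D over the same period. All mothers were moved to the sufficient diet at delivery and all offspring were kept on it after weaning, so the groups differ in a maternal diet and not in the diet of the mice themselves at sampling. The paper adds that vitamin D stayed low for the offspring in their first weeks of life, so the exposure was not only prenatal. The comparison asks whether the maternal diet was still visible in the adult liver, and the libraries are named here VDD1 to VDD6 and VDS1 to VDS6.

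Cyp2a and Cyp2b genes encode cytochrome P450 enzymes, haem proteins of the endoplasmic reticulum that oxidise steroids, drugs and plant compounds. In mouse liver several of them are switched by sex through the pattern of growth hormone release, and others are induced by foreign compounds through the nuclear receptor Car (gene Nr1i3) and its relative Pxr (Nr1i2). Cyp2a4 is a testosterone 15α-hydroxylase that is mainly made in female liver, and Cyp2b9 and Cyp2b13 are also female-predominant. Cyp2a5 is the coumarin 7-hydroxylase, found mostly in hepatocytes around the central vein, and Cyp2b10 is the standard target gene of Car. Cyp2a12 is an abundant steroid hydroxylase of adult liver.

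All 7 genes lie on chromosome 7 between positions 25897620 and 27037375 (GRCm38), a span of 1140 kb, in the order Cyp2b10, Cyp2b13, Cyp2b9, Cyp2a4, Cyp2a5, Cyp2a22 and Cyp2a12. Cyp2a22 is on the reverse strand and the other 6 are on the forward strand. The upstream sequences of the closest pairs are printed because each pair is nearly identical there while its members were at very different levels or were both close to absent. Each is the 250 bases before the RefSeq transcript start on the forward strand of GRCm38.p6, written 5′ to 3′, with capitals at the bases that differ between the partners of a pair. All 7 genes were matched to a RefSeq upstream sequence.
Cyp2a4, chr7:26306942-26307191: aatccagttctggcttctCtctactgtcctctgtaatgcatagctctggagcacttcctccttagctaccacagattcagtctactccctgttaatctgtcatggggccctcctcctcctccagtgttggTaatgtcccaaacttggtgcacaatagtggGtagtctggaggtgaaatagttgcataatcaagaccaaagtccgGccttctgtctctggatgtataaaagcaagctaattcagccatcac
Cyp2a5, chr7:26835089-26835338: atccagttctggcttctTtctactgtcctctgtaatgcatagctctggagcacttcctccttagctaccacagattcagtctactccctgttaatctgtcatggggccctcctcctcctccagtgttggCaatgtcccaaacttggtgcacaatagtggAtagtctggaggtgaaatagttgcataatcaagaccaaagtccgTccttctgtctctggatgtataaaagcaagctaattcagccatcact
Cyp2b9, chr7:26173159-26173408: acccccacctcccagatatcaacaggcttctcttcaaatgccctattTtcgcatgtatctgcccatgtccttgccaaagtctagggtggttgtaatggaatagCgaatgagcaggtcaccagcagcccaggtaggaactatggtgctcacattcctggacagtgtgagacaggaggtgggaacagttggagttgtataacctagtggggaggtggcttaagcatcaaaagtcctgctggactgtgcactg
Cyp2b13, chr7:26061245-26061494: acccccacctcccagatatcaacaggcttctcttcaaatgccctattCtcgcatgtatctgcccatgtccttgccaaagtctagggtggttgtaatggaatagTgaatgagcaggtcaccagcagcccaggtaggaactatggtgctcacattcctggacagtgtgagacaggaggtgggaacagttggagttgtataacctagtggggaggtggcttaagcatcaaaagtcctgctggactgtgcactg

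The windows of Cyp2a4 and Cyp2a5 differed at 4 aligned bases, an identity of 98.4%, and those of Cyp2b9 and Cyp2b13 at 2 of 250, an identity of 99.2%. The Cyp2b10 window was 75.8% identical to either of the other Cyp2b windows. The Cyp2a12 and Cyp2a22 windows were 90.0% identical. A search for 6 short motifs gave the following matches, in which no pair of matches overlapped and none held a base that differs within a printed pair. The Hnf4a letters CAAAGTCC, searched on both strands, were found in the windows of Cyp2a4 and Cyp2a5 alone among the 7 genes, 55 and 56 bases before the start, and in 1.2% of all 32851 RefSeq windows of the same length. The C/EBP letters TTGCNNAA were found on either strand in 5 of the 7 windows (not in Cyp2a12 or Cyp2a22) and in 9.56% of all windows. TATAAA, searched on the gene's own strand, was found in the 4 Cyp2a windows, none of the 3 Cyp2b windows and 7.59% of all. The nuclear receptor letters AGGTCA were found in the windows of Cyp2b9 and Cyp2b13, while the Stat5 letters TTCNNNGAA and the Onecut letters ATCAAT were found in none of the 7. These last 3 were present on either strand in 14% (AGGTCA), 7.02% (TTCNNNGAA) and 6.72% (ATCAAT) of all windows. A match is a run of letters and no binding was measured.

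Transcripts of these genes are alike as well, which bears on how far their counts can be separated. Over the longest annotated coding transcript of each gene, Cyp2a4 and Cyp2a5 were 98.3% identical, Cyp2a12 and Cyp2a22 96.5%, and Cyp2b9 and Cyp2b13 91.9%. Only fragments with 1 place in the genome were counted, so fragments from stretches that 2 genes share drop out of both. Of all stretches of 100 bases in the Cyp2a4 transcript, 11.2% also occurred in another annotated gene, each time including Cyp2a5. The share was 14.4% for Cyp2a5, 6.83% for Cyp2a12, 6.36% for Cyp2a22, 1.18% for Cyp2b9 and 9.29% for Cyp2b13, and no such stretch of Cyp2b10 was shared. The comparison covers annotated transcripts and not the rest of the genome. Cyp2a4 and Cyp2a5, and Cyp2a12 and Cyp2a22, are therefore reported with that uncertainty, since a sequencing error at one of the few differing bases could move a read to the partner.

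**Figure D1:**
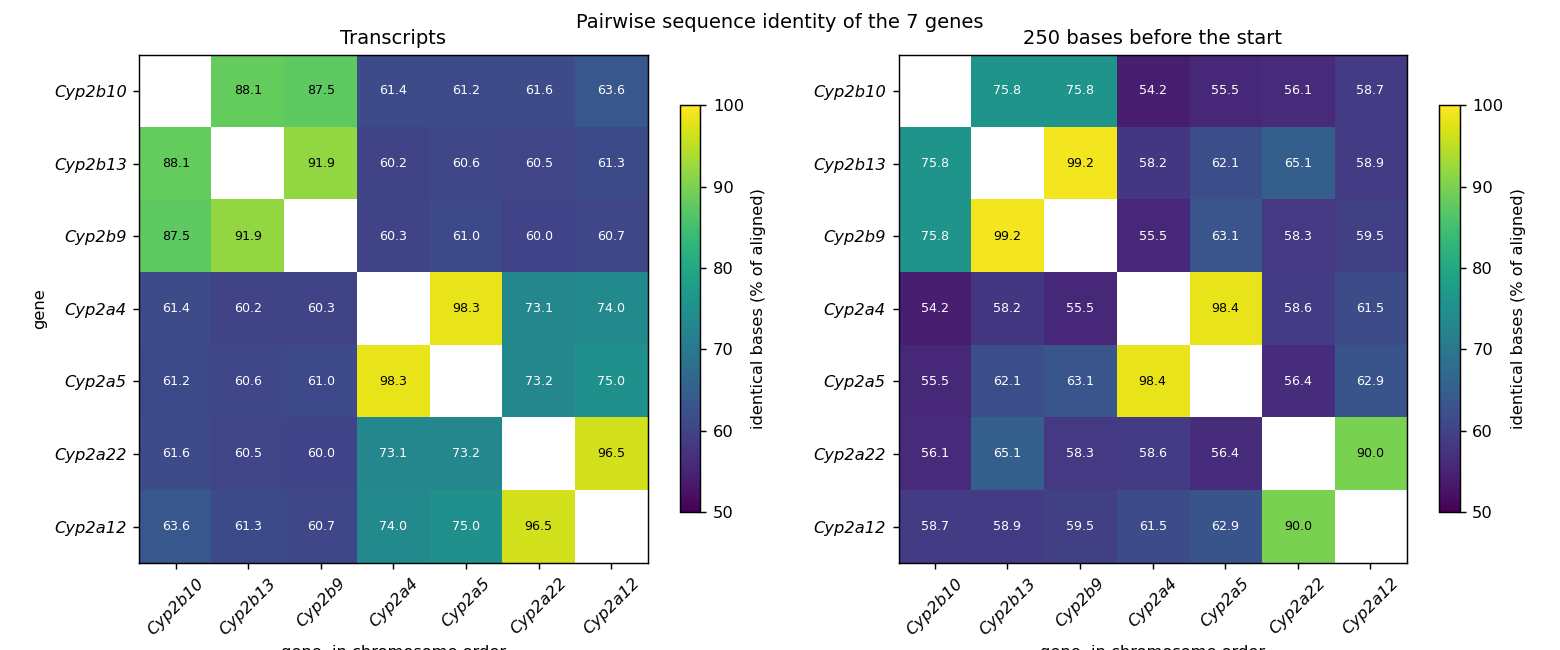
Identical bases as a percentage of aligned bases for each pair of the 7 genes, for transcripts (left) and for the 250 bases before the start (right), with genes in chromosome order on both axes. Cyp2a4 and Cyp2a5 stand out in both panels (98.3% and 98.4%), and Cyp2b9 and Cyp2b13 are closer before the start (99.2%) than in their transcripts (91.9%).

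Libraries held 14275793 to 20815066 fragments on genes, counted on the reverse strand, and all 7 hepatocyte markers, among them Alb and Apoa1, passed the filter. All 12 libraries had Ddx3y from the Y chromosome at 41.1 to 62.1 CPM (counts scaled to a common library size), and Xist was at 0 to 1.72 CPM, the highest in VDS6. The mice also fall into 2 sets that the study's labels do not name. The study's histology supplement gives a liver weight for 7 of them (VDS3 to VDS6 and VDD4 to VDD6), and the other 5 (VDS1, VDS2 and VDD1 to VDD3) have none there. Results of the members are therefore also given with regard to this record, which is not called a batch because no source says that the sets were handled apart.

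Cyp2a12 and Cyp2a5 together made up 88.3% of the RNA of the 7 genes, per length, in VDD2, 93.1% to 94.0% in VDD4 to VDD6 and at least 99.2% in the other 8 livers. Most of the rest in those 4 livers was Cyp2a4, at 10.6% in VDD2 and 4.96% to 5.75% in VDD4 to VDD6. Levels of different genes were compared as CPM per kilobase of exon. Over the 12 livers Cyp2a12 was at 140.1 ± 20.3 and Cyp2a5 at 132 ± 65.1 CPM per kilobase (mean ± SD, n = 12), and Cyp2a12 was the higher of the pair in 7 of 12 livers, so these neighbours in the order did not separate. Cyp2a5 was above Cyp2a4 in all 12 livers. The place of Cyp2a4 depended on the group, since it came after Cyp2a12 and Cyp2a5 at 12.3 ± 10.1 in VDD-F1 but was at 0.0793 ± 0.0916 in VDS-F1 (SD, n = 6 each), where the means of Cyp2b10, Cyp2a22 and Cyp2b9 were higher. Cyp2b10 at 0.943 ± 0.980, Cyp2a22 at 0.572 ± 0.381 and Cyp2b9 at 0.350 ± 0.309 over the 12 livers had ranges that overlapped throughout. Cyp2b13 had 1 fragment in all 12 livers together, in VDD2. Within the Cyp2a RNA, again per length, Cyp2a5 took 34.1% to 47.7% in VDD-F1 and 31.0% to 59.7% in VDS-F1.

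**Figure D2:**
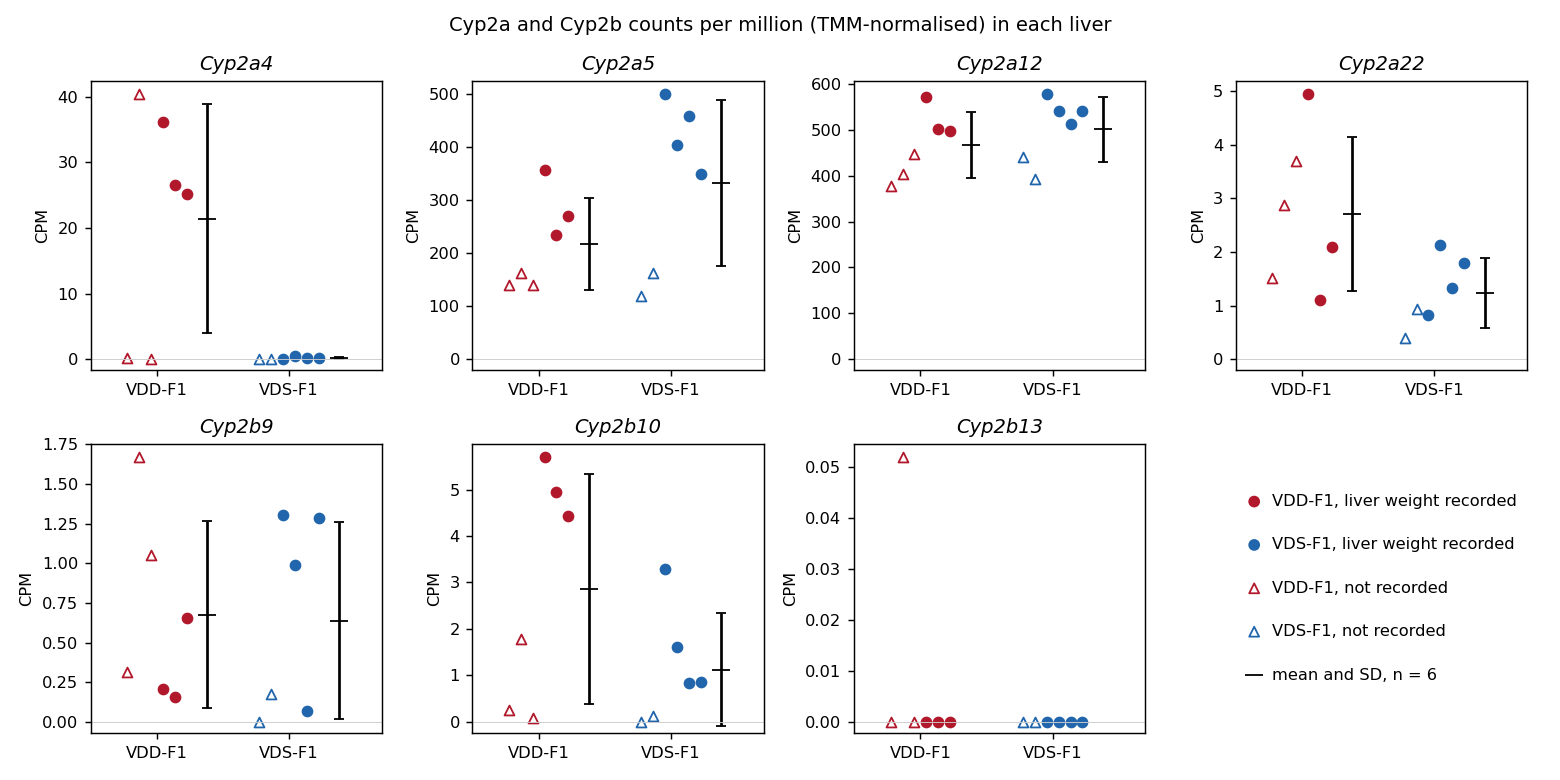
CPM (y axis, a separate scale for each gene) of the 7 genes in each VDD-F1 (red) and VDS-F1 (blue) liver, with filled circles for mice with a recorded liver weight and open triangles for the others. Black bars give the mean and SD of 6 livers and are left out for Cyp2b13. Cyp2a4 is high in 4 of 6 VDD-F1 livers, while Cyp2a5 and Cyp2a12 split by the weight record.

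In the comparison of VDD-F1 with VDS-F1, none of the members was a DEG. A DEG here has a Benjamini-Hochberg adjusted p under 0.05 in edgeR's quasi-likelihood test and a log2-fold change past 1 in either direction. Of the 7 genes, 5 passed the filter of a mean count of 12 (all but Cyp2b9 and Cyp2b13). The background was 5 DEGs among 12453 genes tested, or 0.0402%. Cyp2a4 passed the filter only through VDD-F1, with a mean count of 391.5 there and 2.333 in VDS-F1. Its place among the tested members thus depends on the group in which it was high. At an unadjusted p under 0.05, Cyp2a4 and Cyp2a22 were higher in VDD-F1 and no member was lower, where 15.8% of all genes tested were under that p in either direction and 9.55% were higher. The groups overlapped for all 5 tested members, and 1.18% of all genes tested had groups that did not overlap. A liver library pools all cells, so fewer expressing cells and less RNA per cell cannot be told apart for any of these genes.

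Cyp2a4 was the member with the widest spread. It was at 40.4 CPM in VDD2, 36.2 in VDD4, 26.5 in VDD5 and 25.2 in VDD6. The other VDD-F1 livers had 0.126 CPM (VDD1, 2 fragments) and none (VDD3). In VDS-F1 the lowest, median and highest values were 0, 0.101 and 0.416 CPM. Thus 4 of 6 VDD-F1 livers were above every VDS-F1 liver, and the remaining VDD-F1 livers lay within the VDS-F1 range. The SD of log2 CPM over the 12 livers was 3.63, wider than in 99.99% of the genes tested, against a median SD of 0.27.

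The log2-fold change of Cyp2a4 was 7.18 ± 1.30 (SE, edgeR adjusted p = 0.0627, 95% confidence interval 4.41 to 9.96), higher in 4 of 6 VDD-F1 livers. An exact permutation test over all 924 splits of 6 against 6, two-sided, gave p = 0.0476 for the mean difference of 4.65 log2 CPM, unadjusted and 1 of 7 such tests. DESeq2's Wald test called the gene (log2-fold change 7.27, adjusted p = 0.000338, among 2.03% of genes called). It was also called by the newer form of edgeR's test (adjusted p = 0.0163, among 0.137%) and with the weight record as a covariate (adjusted p = 0.0388, among 0.169%). DESeq2 with the filter on total counts called it as well (adjusted p = 0.00047, among 1.65%). DESeq2 with the record as a covariate gave it a log2-fold change of 7.81 but no p, adjusted or unadjusted. Leaving out VDD1 or VDD3, the livers without Cyp2a4, gave adjusted p = 0.00487 and 0.0269, and leaving out any other liver gave a larger adjusted p than 0.0627, up to 0.162 without VDS3. In the 7 mice with a recorded weight, Cyp2a4 was 25.2 to 36.2 CPM in 3 VDD-F1 and 0 to 0.416 CPM in 4 VDS-F1 livers, and the log2-fold change was 7.09 ± 0.34 (SE, edgeR adjusted p = 4.31e-07, where 4.33% of genes were called). In the 5 mice without one, the single high liver was VDD2 and no gene was called.

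Cyp2a4 and Cyp2a5 are identical at 1708 of 1738 aligned transcript bases, so the fragments of Cyp2a4 were set against those of Cyp2a5 in the same liver. Cyp2a4 held 19.99% of the 3871 fragments of both genes in VDD2 (Wilson 95% interval 18.8% to 21.3%). The share was 9.24% in VDD4 (8.51% to 10.02%), 10.2% in VDD5 (9.38% to 11.1%) and 8.53% in VDD6 (7.87% to 9.24%). In the other 8 livers it was at most 0.103%, although Cyp2a5 reached its highest levels of all in 3 of them. The 0 of 7261 fragments in VDS3 allow a share of up to 0.0413%, taken as 3 fragments of that total (0.0529% by the Wilson interval), and these limits and intervals cover counting error only. Cyp2a4 was thus not a constant fraction of the Cyp2a5 reads. An antisense gene, Gm42375, overlaps the 5′ end of Cyp2a4, and it had at most 2 fragments in any liver.

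**Figure D3:**
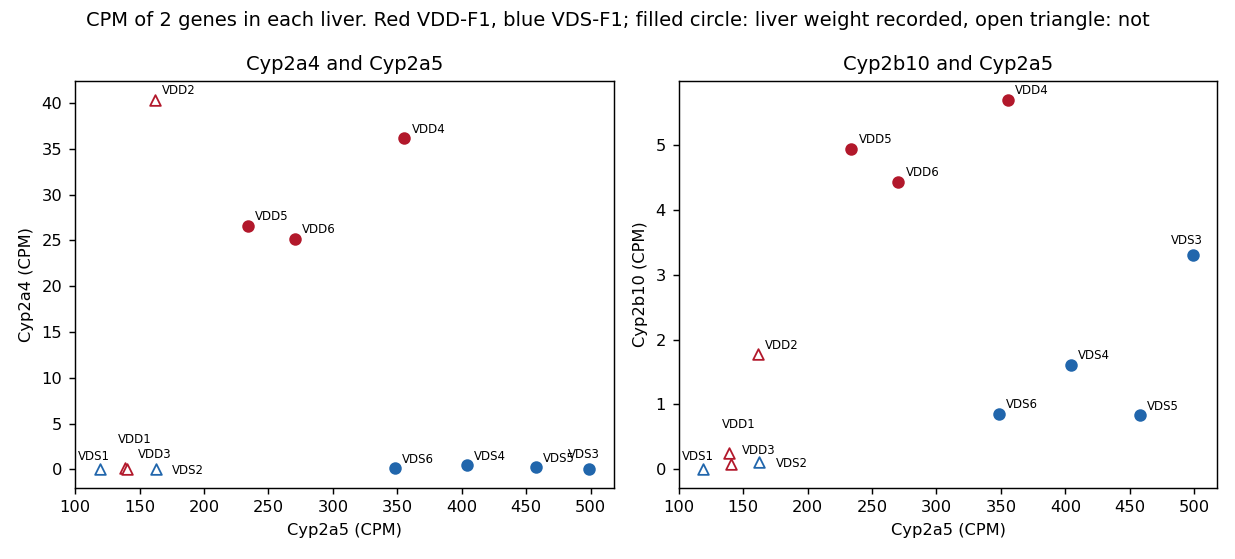
CPM of Cyp2a4 (left, y axis) and of Cyp2b10 (right, y axis) against CPM of Cyp2a5 (x axis) in each of the 12 livers, named as in the text. The 4 livers with Cyp2a4 above 25 CPM span Cyp2a5 levels from 162 to 355 CPM, and VDS3, with the highest Cyp2a5 (499 CPM), has no Cyp2a4 fragment.

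Cyp2a5, the coumarin hydroxylase, was not separated by the maternal diets. Its lowest, median and highest values were 139, 198 and 355 CPM in VDD-F1 and 119, 376 and 499 CPM in VDS-F1. The groups overlapped over most of their range, and the log2-fold change was -0.61 ± 0.34 (SE, edgeR adjusted p = 0.400; exact permutation p = 0.238). Within the mice with a recorded weight the values were 234 to 355 CPM in 3 VDD-F1 and 348 to 499 CPM in 4 VDS-F1 livers, and the log2-fold change was -0.57 ± 0.15 (SE, adjusted p = 0.0327). That falls short of the fold change of a DEG. In the mice without a recorded weight it was 139 to 162 CPM in VDD-F1 and 119 to 163 CPM in VDS-F1, with a log2-fold change of 0.06.

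Cyp2a12 varied least of the 5 members tested. It lay between 377 and 573 CPM in VDD-F1 and between 392 and 578 CPM in VDS-F1, and its log2-fold change was -0.10 (95% confidence interval -0.37 to 0.16, edgeR adjusted p = 0.731). Its SD of log2 CPM, 0.21, was wider than in 35.2% of genes tested.

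Cyp2a22, the close relative of Cyp2a12, had few fragments in every liver. Its lowest, median and highest values were 1.10, 2.48 and 4.94 CPM in VDD-F1 and 0.395, 1.13 and 2.13 CPM in VDS-F1. Of the VDD-F1 livers, 3 were above all VDS-F1 livers (VDD2, VDD3 and VDD4), which are not the same livers as those with high Cyp2a4, since VDD3 had none. The log2-fold change was 1.12 ± 0.42 (SE, edgeR adjusted p = 0.223; exact permutation p = 0.0455, unadjusted). Within the mice with a recorded weight it was 0.80 ± 0.48 (SE, adjusted p = 0.331). In those without one it was 2.01 ± 0.65 (SE, adjusted p = 0.9998), with 1.52 to 3.69 CPM in VDD-F1 and 0.395 and 0.944 CPM in VDS-F1.

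Cyp2b10, the Car target gene, was low in all livers but varied widely. In VDD-F1 it was at 5.70 CPM in VDD4, 4.94 in VDD5, 4.43 in VDD6 and 1.77 in VDD2, and at 0.253 and 0.0753 CPM in VDD1 and VDD3. In VDS-F1 it was highest in VDS3 at 3.30 CPM, had a median of 0.846 CPM and was at 0 in VDS1. The order within VDD-F1 thus separates VDD1 and VDD3 from the others, as for Cyp2a4. The log2-fold change was 1.38 ± 0.88 (SE, edgeR adjusted p = 0.475; exact permutation p = 0.325). In the mice with a recorded weight the ranges were 4.43 to 5.70 CPM in 3 VDD-F1 and 0.833 to 3.30 CPM in 4 VDS-F1 livers. They did not overlap there, nor did those of Cyp2a4, which makes 2 of 5 members, while 23.4% of all genes tested in these 7 livers did not overlap. Cyp2b10 was a DEG in that fit (log2-fold change 1.596 ± 0.39, SE, adjusted p = 0.0236), as were 4.33% of genes. With the record as a covariate in all 12 livers, edgeR did not call it (1.95 ± 0.60, SE, adjusted p = 0.124). DESeq2 with the same covariate did (2.13, adjusted p = 0.0162, among 2.27% of genes).

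Cyp2b9 and Cyp2b13, the female-predominant Cyp2b genes, did not pass the filter on mean counts. Cyp2b9 was between 0.158 and 1.67 CPM in VDD-F1 and between 0 and 1.31 CPM in VDS-F1, from at most 32 fragments in a library. It was highest in VDD2, VDS3 and VDS6, and its exact permutation p was 0.649. With the filter on total counts, which Cyp2b9 passes, its log2-fold change was 0.10 ± 0.79 (SE, edgeR adjusted p = 0.9751). In the mice without a recorded weight it was 0.316 to 1.67 CPM in VDD-F1 and 0 and 0.177 CPM in VDS-F1, and in those with one it was 0.158 to 0.653 CPM in VDD-F1 and 0.069 to 1.31 CPM in VDS-F1. The single Cyp2b13 fragment was in VDD2, and 0 fragments in the other libraries is under the floor of 3 fragments. A difference in Cyp2b13 was not detectable at this depth.

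**Figure D4:**
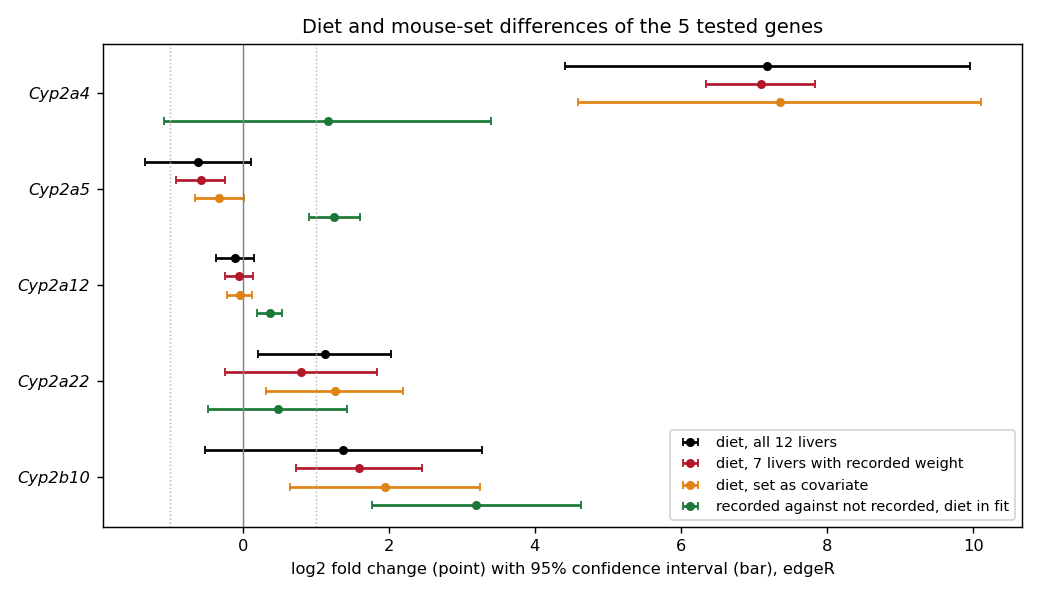
Log2-fold changes (x axis, points) with 95% confidence intervals (bars) of the 5 members tested, for the diet comparison in all 12 livers (black), in the 7 with a recorded liver weight (red) and with the record as a covariate (orange), and for livers with against without a record (green). Dotted lines mark -1 and 1. Cyp2a4 stands at 7.18 for diet in all livers and Cyp2a5 at 1.26 for the weight record.

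The weight record went with differences in other members than Cyp2a4. With the diet kept in the fit, Cyp2a5 and Cyp2b10 were higher in the mice with a record and met the DEG thresholds. These were 2 of 5 members tested, where 0.891% of all genes did and 0.281% were higher. Cyp2b10 passed the filter only through the mice with a record, with a mean count of 53.57 there and 8.2 in the others. Its place among the tested members thus depends on the set in which it was high. Cyp2a5 was at 234 to 499 CPM in the 7 mice with a record and 119 to 163 CPM in the 5 without. The ranges did not overlap, and the log2-fold change was 1.26 ± 0.16 (SE, edgeR adjusted p = 0.00169). It was called when any 1 liver was left out.

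Cyp2a12 did not overlap either, at 499 to 578 CPM with a record and 377 to 448 CPM without. Its difference was small, 0.37 ± 0.08 (SE, adjusted p = 0.0309, where 2.46% of genes were under 0.05), and 2 of 5 tested members had sets that did not overlap, against 1.80% of all genes tested. Leaving out VDD1, VDD4, VDD5, VDD6, VDS1, VDS3 or VDS4 took this adjusted p past 0.05, and without VDS2 it was 0.101.

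Cyp2b10 was at 0.833 to 5.70 CPM in the mice with a record and 0 to 1.77 CPM in those without. The log2-fold change was 3.20 ± 0.67 (SE, edgeR adjusted p = 0.0238). Leaving out VDD4, VDD5, VDD6, VDS1 or VDS2 took the adjusted p to between 0.05004 and 0.0640. For Cyp2a4 the difference was 1.16 ± 1.04 (SE, adjusted p = 0.705), but it rested on VDD2, without which it was 7.89 (adjusted p = 2.57e-05). Cyp2a22 showed 0.48 ± 0.44 (SE, adjusted p = 0.716).

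Whether the diet difference itself depended on the set was tested with an interaction term, and no member was called, where 0.0803% of genes were. Among the 5 members tested the lowest unadjusted p was that of Cyp2a5 (interaction -0.64 ± 0.26 log2, SE, edgeR adjusted p = 0.508), which was under 0.05 unadjusted, as were 9.01% of genes. With the filter on total counts Cyp2b9 had a lower unadjusted p than Cyp2a5 (interaction -4.90 ± 1.56 log2, SE, edgeR adjusted p = 0.409), and it was not called either. For Cyp2a4 the interaction was -1.55 ± 4.94 (SE), too wide to be read, and without VDD2 it was 5.95 (adjusted p = 0.359).

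Among all 12453 genes tested, those whose profile over the 12 livers was closest to Cyp2a4 were Lrtm2, Gpnmb, Tinag, Gm3776 and Ncam1. Closeness was the root mean square difference between log2 CPM values, each gene centred on its own mean, and it ran from 0.96 for Lrtm2 to 2.02 for Ncam1, with a median over all genes of 3.49. None of them lies on chromosome 7. Lrtm2, a leucine-rich repeat membrane protein, was at 4.63 to 10.9 CPM in VDD2, VDD4, VDD5 and VDD6 and at 0 to 0.118 CPM in the other 8 livers. Gpnmb, a transmembrane glycoprotein of macrophages, was at 7.41 to 45.4 CPM in the same 4 livers and at 0.0687 to 1.43 CPM in the others. Log2-fold changes by diet were 7.04 ± 1.33 for Lrtm2 and 5.72 ± 0.99 for Gpnmb (SE, edgeR adjusted p = 0.0627 for each), so neither was a DEG. The likeness is a description over 12 libraries, and the 5 genes were picked for it.

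The genes closest to Cyp2b10 were Gsta1, Gsta2, Cyp2c55, Gstm3 and 9130409I23Rik, at 0.54 to 0.96 with a median over all genes of 1.90. Gsta1, Gsta2 and Gstm3 encode glutathione S-transferases, and Gsta1, Gstm3 and Cyp2c55 also belong to the list of Car and Pxr target genes. Gsta2, the most abundant of the alpha-class pair, was at 39.3 to 97.4 CPM in VDD2, VDD4, VDD5 and VDD6, at 33.1 to 61.9 CPM in VDS3 to VDS6 and at 3.31 to 8.21 CPM in VDD1, VDD3, VDS1 and VDS2. Gsta1, Gsta2 and Gm3776 are near-identical neighbours, so their fragments are uncertain in the same way as those of Cyp2a4 and Cyp2a5.

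**Figure D5:**
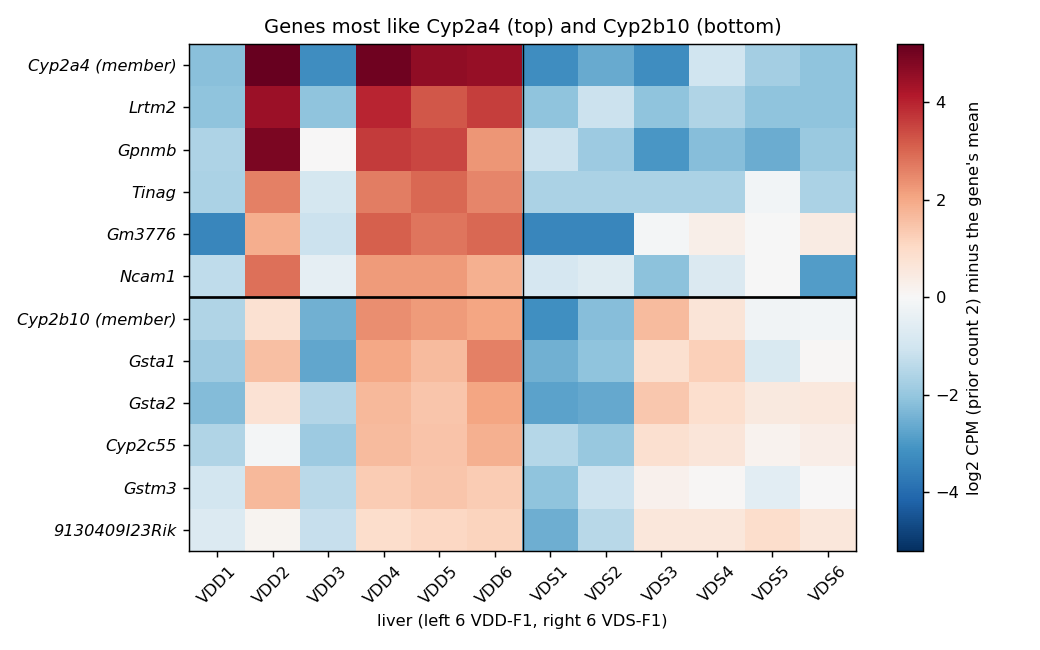
Log2 CPM (prior count of 2) minus each gene's mean, as colour, in each of the 12 livers (x axis) for Cyp2a4 and the 5 genes most like it (top) and for Cyp2b10 and the 5 most like it (bottom). The top genes are high in VDD2, VDD4, VDD5 and VDD6. The bottom genes are lowest in VDD1, VDD3, VDS1 and VDS2.

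No gene of the receptors that drive Cyp2b10 was called by diet in all 12 livers. The list held 9 Car and Pxr receptor and partner genes, all tested, and their median log2-fold change was -0.20 where that of all genes was 0.00. Nr1i3, the gene of Car, was at 11.6 to 15.2 CPM in VDD2, VDD4, VDD5 and VDD6, the livers with high Cyp2a4. It was at 32.6 to 61.3 CPM in the other 8 livers. Its log2-fold change by diet was -0.83 ± 0.35 (SE, edgeR adjusted p = 0.273), and in the mice with a recorded weight it was a DEG at -1.68 ± 0.16 (adjusted p = 7.84e-05). Cyb5a, which passes electrons to P450 enzymes, was at -0.30 ± 0.11 (SE, adjusted p = 0.223), and Rxra, the receptors' partner, at -0.20 ± 0.10 (SE, adjusted p = 0.320). Hsp90aa1, a chaperone that holds Car in the cytoplasm, was at -0.22 ± 0.15 (SE, adjusted p = 0.512).

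Car and Pxr target genes outside the Cyp2a and Cyp2b families were examined next. Of 19 listed, 17 were tested and none was a DEG by diet, with 3 higher and 4 lower at an unadjusted p under 0.05 (9.55% and 6.29% of all genes) and a median log2-fold change of -0.04. Cyp2c37, an arachidonic acid hydroxylase, was at 37.5 ± 27.4 CPM in VDD-F1 and 158 ± 56.4 CPM in VDS-F1 (SD, n = 6 each), and its log2-fold change was -2.08 ± 0.44 (SE, edgeR adjusted p = 0.0812). Ugt1a1, the bilirubin glucuronosyltransferase, was at -0.72 ± 0.16 (SE, adjusted p = 0.0855), Aldh1a1 at -0.65 ± 0.19 (SE, adjusted p = 0.120) and the transporter gene Abcc4 at 1.08 ± 0.36 (SE, adjusted p = 0.167). In the mice with a recorded weight, Gsta1, Gstm3, Cyp2c55 and Abcc4 were DEGs and higher in VDD-F1, and Cyp2c37 was a DEG and lower, 5 of 17 where 4.33% of all genes in that fit were DEGs. By the weight record itself, 4 of the 17 were DEGs and all 4 were higher in the mice with a record, where 0.891% of all genes were DEGs and 0.281% were higher DEGs. These were Cyp3a11, the main Pxr target (2.30 ± 0.25), Cyp2c55 (2.47 ± 0.28), Ces2a (1.55 ± 0.11) and Gstm1 (1.004 ± 0.14, each log2 ± SE). The median of the 17 by the record was 0.23, where that of all genes was -0.01.

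Sex-pattern genes were examined because Cyp2a4, Cyp2b9 and Cyp2b13 belong to the female pattern. Of 23 other female-predominant liver genes, 11 passed the filter, none was a DEG by diet, and 10 of the 11 had a positive log2-fold change, with a median of 0.77. Ntrk2, a neurotrophin receptor, was at 33.4 ± 17.1 CPM in VDD-F1 and 6.98 ± 7.87 CPM in VDS-F1 (SD, n = 6 each; log2-fold change 2.25 ± 0.56, SE, edgeR adjusted p = 0.0947). Abcd2, a peroxisomal fatty acid transporter, was at 1.29 ± 0.28 (SE, adjusted p = 0.0841), the transporter gene Slc22a26 with an adjusted p of 0.358 and the proton pump gene Atp6v0d2 at 0.77 ± 0.43 (SE, adjusted p = 0.404). In the mice with a recorded weight, 4 of 11 tested were DEGs, all higher in VDD-F1 (Abcd2, Cyp17a1, Ntrk2 and Slc22a26), where 3.07% of all genes were higher DEGs. Many defining female genes were all but absent in every liver, as Cyp2b13 was. Cyp3a41a had 2 fragments in all 12 libraries together, Sult2a1 had 4 and Sult2a2 had none.

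Of 25 male-predominant genes, all tested, 2 were DEGs, both lower in VDD-F1 (Mup1 and Mup12, major urinary proteins of near-identical sequence), and 22 of 25 had a negative log2-fold change, with a median of -0.56. Mup12 was at 3.69 ± 3.16 CPM in VDD-F1 and 32.6 ± 11.5 CPM in VDS-F1 (SD, n = 6 each; log2-fold change -3.17 ± 0.46, SE, edgeR adjusted p = 0.0269), and Mup1 had a log2-fold change of -3.32 ± 0.49 (SE, adjusted p = 0.0269), where 0.0241% of all genes were lower DEGs. Leaving out any 1 of VDD4 to VDD6 or VDS3 to VDS6 took both past 0.05, to adjusted p values from 0.0693 to 0.130. In the mice with a recorded weight, 10 of 25 were DEGs, all lower in VDD-F1, where 1.26% of all genes were lower DEGs. By the record itself Moxd1 was lower (-5.98 ± 0.53) and Cspg5 higher (1.64 ± 0.40, log2 ± SE) in the mice with one, and of the female-predominant genes Cyp17a1 was lower (-2.06 ± 0.34). Cyp7b1, an oxysterol hydroxylase, was at -1.68 ± 0.41 (SE, adjusted p = 0.0918) and Mup11 at -2.64 ± 0.72 (SE, adjusted p = 0.112). Susd4 was at 0.894 to 1.99 CPM in VDD2, VDD4, VDD5 and VDD6, the livers with high Cyp2a4, and at 22.6 to 42.7 CPM in the other 8. That example was chosen after its values were seen. Of 21 genes of the growth hormone pathway and other sex-pattern regulators, 20 were tested and none was a DEG, with a median of -0.06. Among them were Hnf4a (-0.29 ± 0.13, SE, adjusted p = 0.301), the IGF carrier gene Igfals (-0.34 ± 0.16, SE, adjusted p = 0.324) and Onecut2 (-0.24 ± 0.12, SE, adjusted p = 0.329).

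Of 14 genes that, like Cyp2a5, are made mainly around the central vein, all were tested and 1 was a DEG (Cyp1a2, lower, -1.34 ± 0.20, SE, edgeR adjusted p = 0.0269), a call that was lost, with adjusted p values from 0.0807 to 0.130, without any 1 of VDD4 to VDD6 or VDS3 to VDS6. Lower DEGs were 0.0241% of all genes. Of the list, 13 of 14 had a negative log2-fold change, with a median of -0.36. Cyp2e1, the ethanol-oxidising P450, was at 3209 ± 1601 CPM in VDD-F1 and 5391 ± 770.2 CPM in VDS-F1 (SD, n = 6 each; log2-fold change -0.75, edgeR adjusted p = 0.174). Cyp27a1 was at -0.45 ± 0.16 (SE, adjusted p = 0.188) and Tbx3 at -0.74 ± 0.29 (SE, adjusted p = 0.235). In the mice with a recorded weight, 4 of 13 tested were DEGs and all 4 were lower in VDD-F1 (Glul, Cyp2e1, Cyp1a2 and Tbx3), where 1.26% of all genes were. Glul was also lower by the record itself (-1.29 ± 0.32 log2, SE, edgeR adjusted p = 0.0499). Glul, the glutamine synthetase gene of the innermost hepatocytes, was at 261 to 392 CPM in VDD2, VDD4, VDD5 and VDD6 and at 918 to 1568 CPM in the other 8 livers, and was named after its values were seen.

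No marker gene of another liver cell type was a DEG by diet, where 0.0402% of all genes tested were. Some summed levels reached higher in VDD-F1. Stellate cell markers summed to 270 to 657 CPM in VDD-F1 and 260 to 384 CPM in VDS-F1. Of these, 0 of 6 were DEGs, with Col1a1 at 2.27 ± 0.53 (SE, edgeR adjusted p = 0.0883). All 6 had a positive log2-fold change, and 3 were higher at an unadjusted edgeR p under 0.05, as were 9.55% of all genes. Cholangiocyte markers summed to 23.9 to 115 CPM in VDD-F1 and 27.6 to 51.0 CPM in VDS-F1, with 0 of 5 DEGs. All 5 had a positive log2-fold change, with a median of 0.60, and 3 were higher at that unadjusted p. Kupffer cell markers summed to 128 to 330 CPM in VDD-F1 and 177 to 326 CPM in VDS-F1, with no DEG. In the same order, endothelial markers summed to 260 to 346 CPM and 256 to 369 CPM, with no DEG. Lymphocyte markers summed to 4.82 to 28.9 CPM and 8.08 to 12.6 CPM, also with no DEG. VDD2 had the highest VDD-F1 sum in each of these lists, stellate and cholangiocyte markers included. Adrenal and gonad markers, cells that also make steroid hydroxylases, summed to at most 1.41 CPM, with Cyp11a1 and Cyp11b1 at 0 in all 12 libraries. In the mice with a recorded weight, where Cyp2b10 was a DEG, Col1a1 (2.67 ± 0.23, log2 ± SE) and Epcam, a cholangiocyte surface protein (1.32 ± 0.29), were DEGs and higher in VDD-F1 as well. Over all livers, Col1a1 was at 62.2 to 170 CPM in VDD2, VDD4, VDD5 and VDD6 and at 7.15 to 37.7 CPM in the others. Epcam was at 3.10 to 7.67 CPM in those livers and 0.631 to 2.52 CPM in the others, and Spp1 at 30.1 to 66.6 and 9.28 to 26.9 CPM. These examples were chosen after their values were seen, and most other markers did not split so. The part of these cell types in the Cyp2a4 and Cyp2b10 differences was not tested.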

How the data were processed

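Raw counts of fragments per gene were deposited for each library. Per the study's methods, the authors made them with STAR on mm10 (GRCm38) with GENCODE M15 after adapter trimming, from ribosome-depleted libraries. The reverse-strand count was used here, since it held 92.7% to 95.8% of stranded counts. Between 37.4% and 50.3% of fragments fell on no gene and stayed out. GENCODE M21 gave symbols, lengths and positions (52403 of 52636 genes).

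A mean count of 12 or more was required, and genes were tested with edgeR 4.0.16 in R 4.3.3 (TMM, quasi-likelihood, legacy form, Benjamini-Hochberg), as VDD-F1 against VDS-F1, by weight record, and for their interaction. DESeq2, the tool of the study, was an alternative (version 1.42.0 here). A gene at that mean has few fragments per library, which limits its precision. CPM values are TMM-normalized, and log2 CPM has a prior count of 2. The SE given for edgeR is the absolute log2-fold change divided by the square root of the test's F statistic. Its confidence intervals were built from that SE. Levels had been planned as TPM, but TPM served only for shares within a liver, since Gm23935, 57 bases long, took 10.1% to 58.2% of TPM. In simulated counts for 12453 genes, 98 of 100 genes changed by 2 log2 units were recovered with 3 false calls. The changed genes had higher mean counts than Cyp2a22 and Cyp2b10, and each was changed equally in all VDD-F1 libraries. The recovery therefore does not describe those members, or Cyp2a4, which was high in only part of the VDD-F1 livers. Alignments used Biopython 1.88 in Python 3.11.15 with NumPy 2.4.6, SciPy 1.17.1, pandas 2.3.3 and matplotlib 3.10.9.

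Replicates are mice, and their numbers did not pair across groups. The diet was given to the mothers, and neither the labels nor the paper give the litter of each mouse. All tests treat the mice as independent, so an effect of shared litters on the p-values cannot be checked. The members and lists were chosen with earlier results of these data known. From each pathway list, the up to 4 tested genes with the smallest p and all DEGs are named, except for a result that is not reported here, and genes most like a member are the 5 nearest for members with an SD over 1. Alternatives were the filter (a total of 12), size factors, the count ignoring strand, the newer edgeR form, the record as covariate or split, the replicate block, leaving out each mouse, prior counts of 0.5 and 5, and stretch lengths. DESeq2 with a total filter and with the record were added after seeing the data.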

Additional observations from a re-analysis of the deposited data

Results flagged for a closer look

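Fragments on the strand opposite to the genes lie outside the comparisons, and for 2 members their mean in VDD-F1 was above the highest VDS-F1 liver. Cyp2a4 had a mean of 0.115 opposite-strand CPM in VDD-F1 and none in VDS-F1, with at most 5 fragments in a liver (VDD5), 0.99% of its sense fragments there. Cyp2a12 had a mean of 2.34 opposite-strand CPM in VDD-F1, where the VDS-F1 mean was 0.568 and the highest VDS-F1 liver had 1.47, and VDD5 alone held 147 fragments, 1.54% of its sense fragments. Without VDD5 the VDD-F1 mean of Cyp2a12 was 1.23 CPM, under the highest VDS-F1 liver, and that of Cyp2a4 was 0.0841 CPM. These differences were not tested. Of 13 groups of 6 examined by Dixon's criterion, of which chance picks about 1 in 20, the VDD-F1 group of Cyp2b13 held a liver far from the rest, VDD2 at 0.0522 CPM, which is the single fragment of that gene. In the other 12 groups no liver lay that far, and no member's diet difference was shown to differ between the sets.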

How the results depend on the processing

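The count of members called by diet (0) became 1 under DESeq2, under the newer edgeR form, with the weight record as a covariate, and under DESeq2 with a total filter (Cyp2a4 each time). It was 1 under DESeq2 with the record as a covariate (Cyp2b10, 2.13, adjusted p = 0.0162, with Cyp2a4 given no p, adjusted or unadjusted). It was 2 in mice with a record, and 0 to 1 with 1 mouse left out. The replicate block also gave 1 (Cyp2a4, adjusted p = 9.55e-05), but same-numbered mice correlated at -0.0762 to 0.103 and 0 of 6 matched best with their own number. Genes called in the other lists (3) became 10 under DESeq2 with either filter, 17 with DESeq2 and the record, 26 and 0 in mice with and without a record, 5 under the block, and 0 to 11 with 1 mouse left out. Members called by the record (2) ranged from 1 to 3 and by the interaction from 0 to 0. Signs turned for Cyp2a5 by diet in mice without a record (0.06), and in the interaction with 1 mouse left out for Cyp2a4 (range -3.77 to 5.95), Cyp2a12 (-0.11 to 0.06) and Cyp2b10 (-5.07 to 0.07). The share of Cyp2a4 stretches found elsewhere was 38.8%, 22.1% and 4.22% at 50, 75 and 150 bases, by construction. The causes of the other changes were not tested. Prior counts and the count ignoring strand changed no call of a member, and the strand left the list count at 3. Counts of DEGs over all genes, 5 as reported, were 253 under DESeq2, 17 under the newer form, 21 with the record as a covariate and 536 in mice with a record. They were 260 without VDD1, 94 without VDD3, 12 without VDS2, 1 without VDS6 and 0 without VDD4, VDD5, VDD6, VDS3, VDS4 or VDS5, so the shares over all genes move as well. The 10 by the interaction became 244 without VDD2 and ranged from 3 to 25 without another mouse, and the 111 by the record ranged from 68 to 178.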

Other observations

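Of 6 neighbours in the cluster, Cyp2f2 and Cyp2s1 were tested and neither was a DEG by diet. Cyp2g1, with 65 fragments in all libraries together, did not pass the filter, and Cyp2b19, Cyp2b23 and Cyp2t4 had no fragment in any liver. Cyp2f2, a naphthalene-oxidising P450 of hepatocytes around the portal vein, was at 1037 to 2154 CPM in VDD-F1 and 1010.0 to 2387 CPM in VDS-F1 (log2-fold change -0.19 ± 0.22, SE, edgeR adjusted p = 0.730), and Cyp2s1 was at 0.46 ± 0.64 (SE, adjusted p = 0.775). By the weight record Cyp2f2 was at 1681 to 2387 CPM with a record and 1010.0 to 1343 CPM without (0.75 ± 0.12 log2, SE, edgeR adjusted p = 0.00602), short of the fold change of a DEG.

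Of 12 genes made mainly around the portal vein, all tested, none was a DEG by diet in all 12 livers, and Aldh1b1 was one in the mice with a recorded weight (1.30 ± 0.12 log2, SE, edgeR adjusted p = 5.71e-05), higher in VDD-F1. Hsd17b13, a lipid droplet protein, was at 402 ± 46.5 CPM in VDD-F1 and 293 ± 10.5 CPM in VDS-F1 (SD, n = 6 each; log2-fold change 0.45 ± 0.09, SE, edgeR adjusted p = 0.0640). Aldh1b1 was at 1.03 ± 0.25 (SE, adjusted p = 0.0935), Pigr at -0.41 ± 0.11 (SE, adjusted p = 0.100) and Sds at 0.73 ± 0.27 (SE, adjusted p = 0.221). Of 10 stress and haem genes tied to Cyp2a5, 9 were tested and none was a DEG, with a median of 0.01. Blvrb was at -0.36 ± 0.14 (SE, adjusted p = 0.235), Nqo1 at 0.61 ± 0.32 (SE, adjusted p = 0.370), Ahr at -0.37 ± 0.20 (SE, adjusted p = 0.393) and Gclc at 0.27 ± 0.16 (SE, adjusted p = 0.450).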
